A study of Mus musculus with 9 samples.

Results

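Semaphorins, plexins, ephrins and Eph receptors were described in dendritic cells sorted from the mouse thymus. They were taken by name from the count table: every gene symbol beginning with Sema and a digit, Plxn and a letter from a to d, Efna or Efnb and a digit, or Epha or Ephb and a digit, which leaves out the epoxide hydrolases (Ephx). The rule took 54 of the 55302 genes of the table. These are 20 semaphorins, 9 plexins, 3 antisense transcripts of Plxna4, 8 ephrins and 14 Eph receptors.

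The 9 RNA-seq libraries came from C57BL/6 mice 8 weeks of age with no stated treatment, and fall into 3 populations of 3 libraries each. XCR1 takes its name from the chemokine receptor that marks conventional dendritic cells of type 1, SIRPa from a signal regulatory protein that marks those of type 2, and CD301b from the lectin product of Mgl2. The CD301b libraries are numbered 1, 3 and 4 and those of the other populations 1, 2 and 3. The source label says thymocytes and the cell type label says thymic dendritic cells, and no source used here gives the sort gates. The series names 3 mice, but whether libraries share or pool animals is not stated, so the p-values below measure the spread between these libraries.

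Semaphorins are secreted, membrane-spanning or lipid-anchored proteins that signal mainly through plexins, receptors whose intracellular part acts on small GTPases and so on the cytoskeleton and on adhesion. Ephrins are held at the cell surface and bind Eph receptor tyrosine kinases on neighbouring cells, and both partners can signal. The families are best known from axon guidance. In the immune system, plexin-D1 takes part in the movement of thymocytes towards the medulla, plexin-A1 in contacts of dendritic cells with T cells, and Eph and ephrin proteins in the organisation of the thymic epithelium.

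The transcript behind each population's name was highest in that population, or shared in the case of Sirpa. Levels are given as CPM, the counts of a gene scaled to a common library total, on library sizes scaled by TMM, as mean ± SD over 3 libraries. In XCR1, Xcr1 was at 766 ± 96.7 CPM, where SIRPa had 9.61 ± 5.19 and CD301b 0.619 ± 0.403. In CD301b, Mgl2 was at 624 ± 58.2 CPM, where SIRPa had 23.2 ± 5.32 and XCR1 1.82 ± 0.508. Sirpa was at 646 ± 53.7 CPM in CD301b and 774 ± 58.6 in SIRPa, where XCR1 had 12.5 ± 3.06. Libraries held 20246092 to 25438864 counts. Markers of other cells were present, and the sums of several lists moved with the populations. For 10 markers of mature dendritic cells the sum was 2844 to 3248 CPM in CD301b, 3444 to 3524 in SIRPa and 2405 to 3055 in XCR1. Of these 10, 4 were lower in CD301b than in SIRPa, and 7 were higher in SIRPa than in XCR1. In CD301b against XCR1, 4 of them were higher and 4 lower. The summed level of 10 macrophage markers, all detected in each population, was 1432 to 1679 CPM in CD301b, 2359 to 2749 in SIRPa and 90.7 to 116 in XCR1. All 10 were higher in CD301b than in XCR1, and 9 were higher in SIRPa than in XCR1. In CD301b against SIRPa, 1 of the 10 was higher and 1 lower. The gap in sum between CD301b and SIRPa thus does not speak for the list as a whole. The sum of 14 thymocyte and T cell markers was 455 to 847 CPM in CD301b, with Ptcra at 0, and 673 to 923 in SIRPa. In XCR1 it was 237 and 197 CPM in replicates 1 and 2 and 820 in replicate 3. The sum of 10 stroma and endothelium markers was 216 to 282 CPM over CD301b and SIRPa and 55.0 to 69.3 in XCR1. Emcn and Col3a1 were at 0 in CD301b, Emcn, Pdgfra, Col1a1 and Col3a1 in SIRPa, and Emcn in XCR1. Only 4 of the 10 were tested. Kdr, also listed below among semaphorin receptors, alone held 191 ± 18.2 CPM in SIRPa and 43.4 ± 4.71 in XCR1. Of 8 plasmacytoid dendritic cell markers, all detected, the sum was 539 to 675 CPM in CD301b, 396 to 431 in SIRPa and 119 to 145 in XCR1. Against XCR1, 5 of the 8 were higher in CD301b and 4 in SIRPa, and 1 was higher in CD301b than in SIRPa. The sum of 10 monocyte and granulocyte markers was 552 to 652 CPM in CD301b (Ly6g and Elane at 0), 452 to 499 in SIRPa (Elane at 0) and 28.3 to 89.7 in XCR1 (Ly6g at 0). Of the 8 tested, 1 was higher and 1 lower in CD301b than in SIRPa. Against XCR1, 4 of these were higher in CD301b and 2 in SIRPa. The sum of 10 thymic epithelium markers was the other way, at 216 to 256 CPM in CD301b and 243 to 249 in SIRPa (Cldn3 at 0 in both) and 449 to 539 in XCR1 (Krt14 and Cldn3 at 0). Of the 9 tested, 1 was lower and 3 were higher in CD301b than in XCR1. In SIRPa against XCR1, 1 was lower and 2 were higher, so this sum does not speak for the list as a whole. The part of these marker genes in the results below was not tested. In bulk samples, fewer cells that carry a transcript and less of it in each cell cannot be told apart.

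Of the 54 genes, 12 had no count in any library, and 13 had counts but did not pass the filter on low counts. The remaining 29 were tested, with P values from edgeR's quasi-likelihood test adjusted by Benjamini-Hochberg over all 15417 genes that passed; a gene was called at an adjusted p under 0.05, by edgeR where no other tool is named. In CD301b against SIRPa, 3 of the 29 were called (10.3%), where 4.28% of all tested genes were called. Of them 1 was higher and 2 were lower in CD301b, beside 2.2% and 2.08% of all genes in these directions. In CD301b against XCR1, 13 of the 29 were called (44.8%), where the share over all genes was 22.6%. Here 10 were higher and 3 lower in CD301b, beside 13.5% and 9.12% of all genes. In SIRPa against XCR1, 13 were also called, where 24.7% of all genes were. Of these, 11 were higher and 2 lower in SIRPa, beside 13.9% and 10.7% of all genes. The last 2 comparisons share the XCR1 libraries. Genes that pass the filter through the population where they are high are the more likely to be called, so the 29 do not stand for the 54. Only Sema4d was called in all 3 comparisons, 12 genes were called in 2, 2 genes in 1 and 39 in none.

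**Figure D1:**
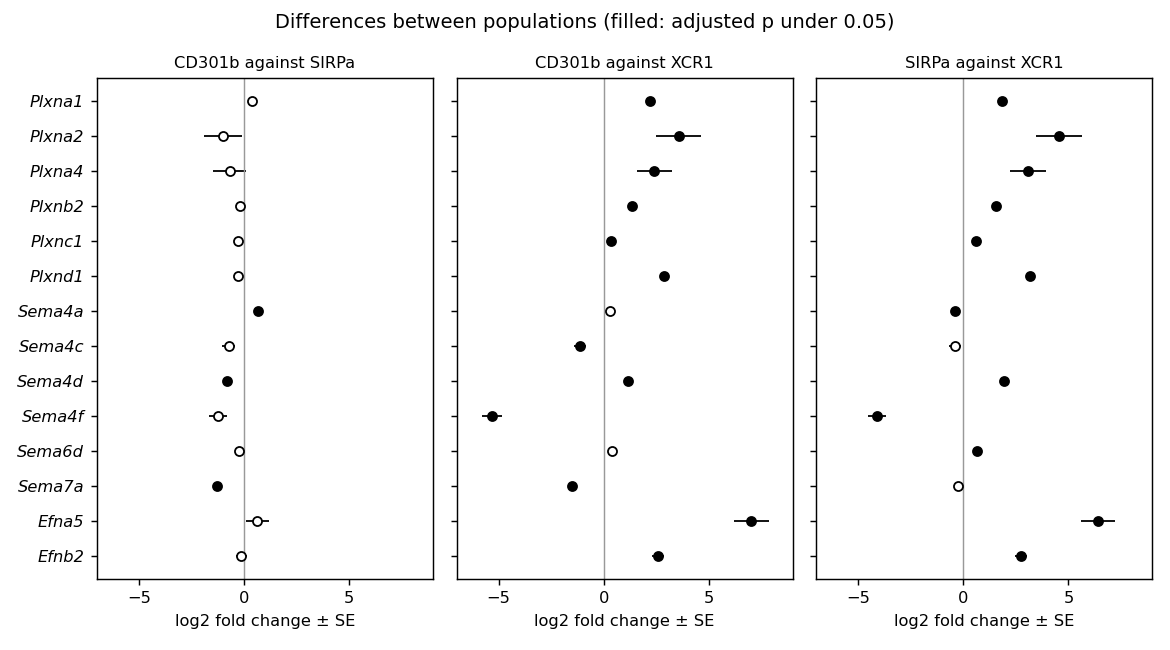
Log2 fold changes ± SE (horizontal axes) from the fit over all 9 libraries for 14 of the 15 called genes, one panel per comparison; filled points have an adjusted p under 0.05. Ephb4 is left out because XCR1 had no count of it. The plexins Plxna1, Plxnb2 and Plxnd1 lie to the right in both comparisons with XCR1, and Sema4f lies far to the left.

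The promoters of 4 genes are shown because these genes stand for the patterns found: Plxnd1 was low in XCR1, Sema4f was high in XCR1 alone, Efna5 was close to 0 in XCR1, and Sema7a was lowest in CD301b. They were chosen after their values were seen. Each line gives the 250 bases that end just before the RefSeq start of the gene (build GRCm38.p6), 5′ to 3′ on the gene's strand. Capitals mark matches on either strand to 7 motifs: ETS (GAGGAA), a composite of ETS and IRF (GGAANNGAA), IRF (GAAANNGAA), AP-1 (TGANTCA), STAT6 (TTCNNNNGAA), the CCAAT box (CCAAT) and the GC box (GGGCGG). The windows are chr6:115995006-115995255 (minus strand) for Plxnd1, chr6:82939770-82940019 (minus) for Sema4f, chr17:62881318-62881567 (minus) for Efna5 and chr9:57939862-57940111 (plus) for Sema7a.
Plxnd1: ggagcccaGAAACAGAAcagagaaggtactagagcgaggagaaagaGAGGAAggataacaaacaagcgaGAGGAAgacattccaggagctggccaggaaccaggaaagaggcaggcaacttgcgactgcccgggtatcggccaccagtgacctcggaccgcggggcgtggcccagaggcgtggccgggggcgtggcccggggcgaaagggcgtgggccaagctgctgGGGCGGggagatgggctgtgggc
Sema4f: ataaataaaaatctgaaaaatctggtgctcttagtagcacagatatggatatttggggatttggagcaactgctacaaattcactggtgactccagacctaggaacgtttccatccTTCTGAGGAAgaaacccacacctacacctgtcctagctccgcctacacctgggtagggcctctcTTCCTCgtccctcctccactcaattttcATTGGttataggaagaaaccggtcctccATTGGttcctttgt
Efna5: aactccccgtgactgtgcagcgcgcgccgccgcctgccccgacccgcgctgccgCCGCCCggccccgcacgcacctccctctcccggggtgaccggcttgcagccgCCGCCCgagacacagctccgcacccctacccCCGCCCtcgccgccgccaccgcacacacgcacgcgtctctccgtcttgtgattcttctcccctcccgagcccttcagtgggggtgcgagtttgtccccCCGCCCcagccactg
Sema7a: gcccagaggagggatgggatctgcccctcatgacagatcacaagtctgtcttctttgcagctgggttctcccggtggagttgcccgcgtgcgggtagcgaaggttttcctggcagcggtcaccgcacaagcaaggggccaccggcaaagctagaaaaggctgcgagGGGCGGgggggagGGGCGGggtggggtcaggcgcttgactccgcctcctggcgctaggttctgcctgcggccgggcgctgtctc

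The 4 windows differ in base composition. That of Sema4f has 46% G and C and 4 CG pairs, that of Plxnd1 64.8% and 16, that of Sema7a 66.4% and 17, and that of Efna5 74.8% and 32. The medians over all 32817 RefSeq promoter windows of this length were 52.4% and 6 pairs. The Sema4f window holds 2 ETS matches, at -130 to -125 and, on the other strand, at -70 to -65 from the start. It also holds 1 STAT6 match at -134 to -125, which overlaps the first ETS match, and 2 CCAAT matches at -42 to -38 and -14 to -10. The Plxnd1 window holds 1 IRF match, 2 ETS matches and 1 GC box. The only matches in the Efna5 window are 4 GC boxes, and the only ones in the Sema7a window are 2 GC boxes. Neither the composite of ETS and IRF nor AP-1 has a match in any of the 4. Over all windows, the share with a match was 23.3% for ETS, 7.12% for IRF, 6.99% for the composite, 6.75% for AP-1, 5.85% for STAT6, 33.8% for the CCAAT box and 32.7% for the GC box. A match describes letters and does not show a bound site.

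Most plexins, the semaphorin receptors, were lower in XCR1 than in the other populations. The summed level of the 9 plexins was 1433 ± 48.2 CPM in CD301b, 1568 ± 52.6 in SIRPa, against 546 ± 33.9 in XCR1. Of the 8 plexins that passed the filter, 6 were higher in CD301b than in XCR1 (75%, beside 13.5% of all tested genes). In SIRPa against XCR1, 6 were also higher (75%, beside 13.9% of all tested genes). None was called lower in these 2 comparisons. In CD301b against SIRPa, edgeR called 0 of the 8, beside 4.28% of all tested genes. With edgeR 3 had an unadjusted p under 0.05 (Plxna1, Plxnc1 and Plxnd1), and DESeq2 and limma-voom each called these 3. Over all genes DESeq2 called 981 and limma-voom 997 in this comparison, where edgeR called 660.

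Plxnd1 (chromosome 6, 115954811 to 115995005, minus strand), a receptor for secreted and membrane semaphorins on endothelium and thymocytes, had a difference from XCR1 many times its error. Its level was 395, 454 and 403 CPM in the CD301b libraries, 538, 478 and 508 in SIRPa and 63.8, 52.2 and 56.2 in XCR1. Every XCR1 library lay below every other library. The log2 fold change was 2.86 ± 0.11 in CD301b against XCR1 (adjusted p = 5.16e-14, edgeR) and 3.15 ± 0.11 in SIRPa against XCR1 (adjusted p = 1.57e-14). Between CD301b and SIRPa the fold change of Plxnd1 was -0.28 ± 0.10 (adjusted p = 0.158). The adjusted p for that difference of Plxnd1 was 0.0455 with DESeq2 and 0.0430 with limma-voom.

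Plxna1 (chromosome 6, 89316314 to 89362620, minus strand), the receptor for SEMA6D and a partner of neuropilins, was at 359, 401 and 323 CPM in CD301b. It was at 288, 280.0 and 265 CPM in SIRPa and at 87.0, 76.4 and 69.5 in XCR1. The populations did not overlap, with CD301b highest and XCR1 lowest. Log2 fold changes were 2.22 ± 0.12 in CD301b against XCR1 (adjusted p = 5.01e-12) and 1.84 ± 0.11 in SIRPa against XCR1 (adjusted p = 8.98e-11). The difference between CD301b and SIRPa, 0.38 ± 0.11, had an adjusted p of 0.0586. It passed the threshold in 7 of 16 alternative analyses, which include leaving out CD301b replicate 4 (adjusted p = 0.0211) or XCR1 replicate 3 (adjusted p = 0.0387). An antisense gene, Gm26811, lies opposite 970 of the 9054 exonic bases of Plxna1 (10.7%), and whether the counting used strand is not stated.

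Plxnb2 (chromosome 15, 89155549 to 89180788, minus strand), a receptor for class 4 semaphorins, was at 284, 267 and 221 CPM in CD301b, 303, 296 and 289 in SIRPa, against 114, 102 and 86.8 in XCR1. XCR1 was again below the other populations with no overlap. The log2 fold changes against XCR1 were 1.35 ± 0.12 in CD301b (adjusted p = 2.25e-08) and 1.55 ± 0.12 in SIRPa (adjusted p = 2.56e-09). Between CD301b and SIRPa the fold change of Plxnb2 was -0.20 ± 0.12 (adjusted p = 0.486).

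Plxnc1 (chromosome 10, 94790866 to 94944835, minus strand), a receptor for SEMA7A, had the smallest differences of the 6 called plexins. It was at 398, 349 and 416 CPM in CD301b, 479, 463 and 467 in SIRPa, against 296, 336 and 293 in XCR1. The groups did not overlap, but the CD301b and XCR1 ranges came close. The log2 fold change was 0.61 ± 0.10 in SIRPa against XCR1 (adjusted p = 7.77e-05) and 0.33 ± 0.10 in CD301b against XCR1 (adjusted p = 0.0185). The latter call on Plxnc1 was lost without CD301b replicate 1 (adjusted p = 0.0791) or 4 (0.0758), without XCR1 replicate 1 (0.0781) or 3 (0.0656), and in a fit of only the 6 libraries compared (0.0568). Between CD301b and SIRPa it was -0.28 ± 0.10 (adjusted p = 0.147). The adjusted p for this difference of Plxnc1 was 0.0409 with DESeq2 and 0.0482 with limma-voom.

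Plxna2 and Plxna4, receptors for class 6 and, with neuropilins, class 3 semaphorins, were found at low levels. Plxna2 was at 3.27, 1.51 and 5.09 CPM in CD301b, 7.67, 6.11 and 5.75 in SIRPa, against 0, 0.81 and 0 in XCR1. Its log2 fold change was 4.56 ± 1.09 in SIRPa against XCR1 (adjusted p = 0.00459) and 3.57 ± 1.06 in CD301b against XCR1 (adjusted p = 0.0206). The CD301b call of Plxna2 was lost without CD301b replicate 1 (adjusted p = 0.0509) or 4 (0.0696), and in a fit of the 6 libraries alone (0.0909). Plxna4 was at 1.67, 1.30 and 11.9 CPM in CD301b, 10.7, 5.40 and 7.63 in SIRPa, against 0.25, 1.81 and 0.72 in XCR1. CD301b replicate 4 stood apart, and the other CD301b libraries lay within the XCR1 range. Plxna4 passed the threshold in CD301b against XCR1 at 2.41 ± 0.84 (adjusted p = 0.0478) with overlapping groups, and the call was lost in 10 of 16 alternatives. Without CD301b replicate 4 its log2 fold change was 0.66 (adjusted p = 0.625). In SIRPa against XCR1 Plxna4 was higher by 3.09 ± 0.85 (adjusted p = 0.0126) with no overlap, a call lost without XCR1 replicate 1 (0.0521) or 3 (0.0516). Plxna3 and Plxnb1 passed the filter with a mean of at most 1.30 CPM in any population and were not called, and Plxnb3 did not pass.

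**Figure D2:**
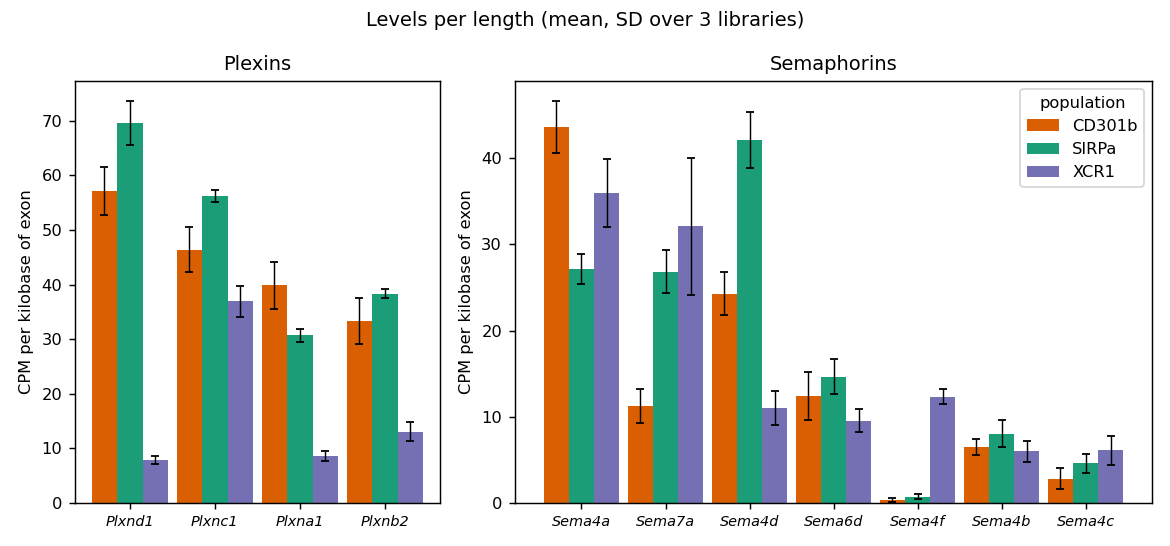
Mean level per kilobase of exon (CPM per kilobase, bars) with the SD over 3 libraries in each population, for 4 plexins and 7 semaphorins. Plxnc1 is the highest plexin in XCR1, Plxnd1 in the other populations, and the highest semaphorin is Sema4d in SIRPa and Sema4a in CD301b and XCR1.

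Levels divided by exonic length allow genes to be ordered within a population. In CD301b the order of plexin levels was Plxnd1 at 57.2 ± 4.39 CPM per kilobase, Plxnc1 at 46.4 ± 4.16, Plxna1 at 39.9 ± 4.33 and Plxnb2 at 33.3 ± 4.24. In SIRPa it was Plxnd1 at 69.6 ± 4.06, Plxnc1 at 56.2 ± 1.05, Plxnb2 at 38.4 ± 0.888 and Plxna1 at 30.7 ± 1.27. In XCR1 Plxnc1 led at 36.9 ± 2.88 CPM per kilobase, followed by Plxnb2 at 13.1 ± 1.76, while Plxna1 at 8.57 ± 0.971 and Plxnd1 at 7.86 ± 0.803 differed by less than their SDs. As a share of the per-length level of all plexins, Plxnc1 made up 55.4 ± 3.43% in XCR1, 26.2 ± 3.23% in CD301b and 28.7 ± 0.421% in SIRPa. The share of Plxnd1 was 11.8 ± 1.30% in XCR1, 32.2 ± 1.83% in CD301b and 35.5 ± 1.06% in SIRPa. The share of Plxnb2 lay between 18.7 and 19.6% in the 3 populations.

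Semaphorins were called in both directions. Their summed level was 648 ± 48.7 CPM in CD301b, 792 ± 39.2 in SIRPa, against 620 ± 52.4 in XCR1, and the members called were of class 4, class 6 and class 7. Sema4d was highest in SIRPa, Sema4a was lowest there, Sema7a was lowest in CD301b, and Sema4f was high in XCR1 alone.

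Sema4d (chromosome 13, 51685529 to 51793747, minus strand) encodes CD100, a transmembrane semaphorin that binds B plexins and, on lymphoid cells, CD72. It was at 180, 171 and 208 CPM in CD301b, 342, 295 and 332 in SIRPa, against 73.6, 78.2 and 102 in XCR1. The 3 populations were separate, in the order SIRPa, CD301b, XCR1. The log2 fold change of Sema4d was -0.79 ± 0.12 in CD301b against SIRPa (adjusted p = 0.000449), 1.14 ± 0.13 in CD301b against XCR1 (adjusted p = 5.73e-07) and 1.93 ± 0.13 in SIRPa against XCR1 (adjusted p = 2.54e-10). Each call held in every alternative.

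Sema4a (chromosome 3, 88435959 to 88461182, minus strand), a transmembrane semaphorin of dendritic cells that acts on T cells, was at 245, 245 and 217 CPM in CD301b. It was at 136, 150 and 155 CPM in SIRPa and at 202, 211 and 170 in XCR1. All SIRPa libraries lay below all others. For Sema4a the log2 fold change was 0.68 ± 0.11 in CD301b against SIRPa (adjusted p = 0.000621) and -0.40 ± 0.11 in SIRPa against XCR1 (adjusted p = 0.00957). Without XCR1 replicate 2 the latter had an adjusted p of 0.0558. In CD301b against XCR1 it was 0.28 ± 0.11 (adjusted p = 0.0756), a difference that limma-voom called (adjusted p = 0.0471).

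Sema7a (chromosome 9, 57940112 to 57962865, plus strand), a lipid-anchored semaphorin that binds plexin-C1 and an integrin of the ITGA1 and ITGB1 chains, was at 43.8, 31.1 and 36.4 CPM in CD301b. SIRPa held 91.7, 94.5 and 79.1 CPM and XCR1 98.3, 135 and 84.2. Every CD301b library was below every other library. Sema7a was lower in CD301b than in SIRPa, at -1.25 ± 0.17 on the log2 scale (adjusted p = 9.82e-05), and lower than in XCR1, at -1.51 ± 0.17 (adjusted p = 7.10e-07). SIRPa and XCR1 overlapped, with a fold change of -0.26 ± 0.17 (adjusted p = 0.305). This is the 1 gene among the 54 called in CD301b against SIRPa with a log2 fold change of 1 or more in size.

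Sema4f (chromosome 6, 82911885 to 82939769, minus strand), a transmembrane class 4 semaphorin known mainly from brain, was at 69.4, 65.4 and 60.2 CPM in XCR1. It was at 0.76, 1.13 and 3.08 CPM in CD301b and 5.16, 3.91 and 2.26 in SIRPa, from 109 and 246 counts over 3 libraries. The XCR1 libraries were far above all others. Sema4f differed by a log2 fold change of -5.32 ± 0.45 in CD301b against XCR1 (adjusted p = 9.99e-07) and -4.10 ± 0.42 in SIRPa against XCR1 (adjusted p = 6.03e-06). Between CD301b and SIRPa it was -1.21 ± 0.43 (adjusted p = 0.176). With all libraries that difference of Sema4f was called by DESeq2 (adjusted p = 0.0430) and, with no filter on low counts, by edgeR (0.000481). Without CD301b replicate 4, the highest of its group, it was -2.00 and was called (adjusted p = 0.000939).

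**Figure D3:**
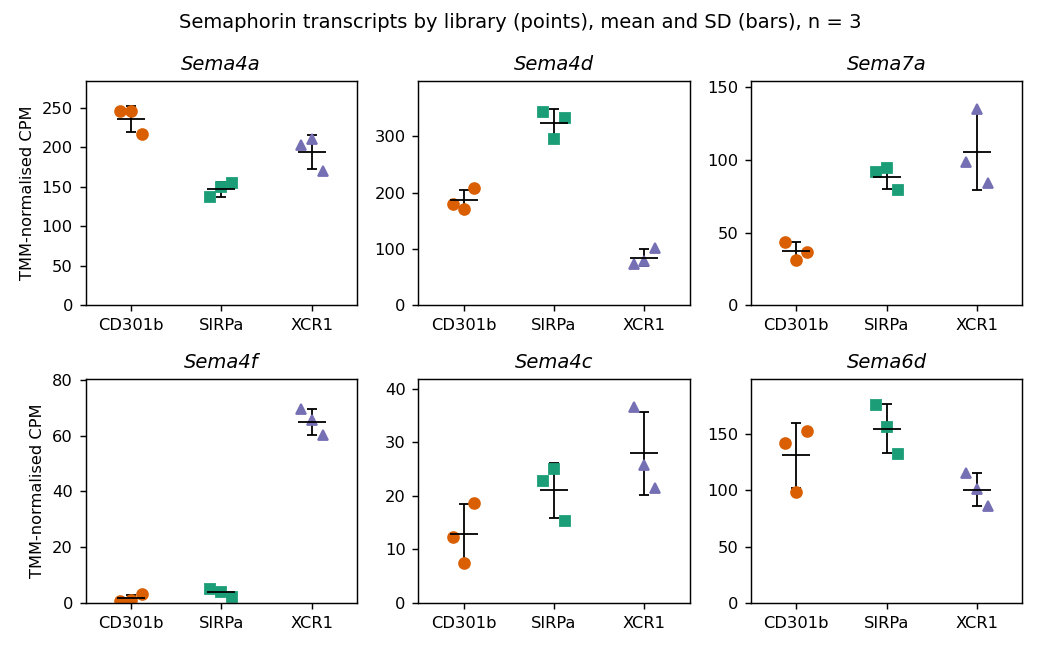
TMM-normalised level (CPM, vertical axis from 0) of 6 semaphorin genes in each library (points), with mean and SD over 3 libraries. Sema4f is between 60.2 and 69.4 CPM in the XCR1 libraries and at most 5.16 in the others; all 3 CD301b libraries are lowest for Sema7a.

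Sema4c, a class 4 semaphorin that binds plexin-B2, was at 12.4, 7.42 and 18.7 CPM in CD301b, 22.8, 25.0 and 15.2 in SIRPa, against 36.6, 25.7 and 21.5 in XCR1. CD301b lay below XCR1 with no overlap, at a log2 fold change of -1.12 ± 0.30 (adjusted p = 0.0100). This call of Sema4c was lost without CD301b replicate 3 (adjusted p = 0.0513) or XCR1 replicate 1 (0.0682). Its difference between CD301b and SIRPa, -0.71 ± 0.30 (adjusted p = 0.266), was called without CD301b replicate 4 at -1.09 (adjusted p = 0.0470). The noncoding gene D430040D24Rik lies opposite 334 of its 4593 exonic bases (7.27%).

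Sema6d, a transmembrane ligand of plexin-A1, was at 142, 98.1 and 152 CPM in CD301b, 176, 156 and 133 in SIRPa, against 115, 101 and 86.1 in XCR1. SIRPa lay above XCR1 with no overlap, with a log2 fold change of 0.62 ± 0.16 (adjusted p = 0.00588). Sema6d in CD301b against XCR1 was 0.38 ± 0.16 (adjusted p = 0.0946), with CD301b replicate 3 inside the XCR1 range. Without that library the difference of Sema6d was 0.55 and was called (adjusted p = 0.00869), and with no filter on low counts it was called with all libraries (0.0367). Sema4b was at 36.7 ± 5.30 CPM in CD301b, 45.3 ± 8.99 in SIRPa, against 33.7 ± 6.92 in XCR1, and Sema6b at 5.02 ± 2.51, 3.10 ± 1.36 and 5.22 ± 1.55; neither was called in any comparison.

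Per length, the leading semaphorin differed between populations. In CD301b Sema4a was at 43.6 ± 2.99 CPM per kilobase and Sema4d at 24.3 ± 2.49, followed by Sema6d at 12.4 ± 2.73 and Sema7a at 11.2 ± 1.94, which did not differ beyond their spread. In SIRPa Sema4d led at 42.1 ± 3.25 CPM per kilobase, and Sema4a at 27.2 ± 1.74 and Sema7a at 26.8 ± 2.50 were level within their SDs. In XCR1 Sema4a at 35.9 ± 3.97 CPM per kilobase and Sema7a at 32.1 ± 7.98 overlapped, and Sema4f at 12.3 ± 0.873 and Sema4d at 11.0 ± 1.96 overlapped too. Of the per-length level of all semaphorins, Sema4f made up 10.8 ± 0.790% in XCR1, 0.302 ± 0.215% in CD301b and 0.563 ± 0.198% in SIRPa.

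The secreted class 3 semaphorins were close to absent. Sema3a, Sema3c and Sema3e had no count in any library, Sema3d had 4 counts and Sema3g had 2 in all. Sema3b had 38 counts, all in XCR1. Only Sema3f passed the filter, at 0.412 CPM in CD301b, 2.35 in SIRPa, against 0.517 in XCR1, and it was not called. Sema5a had 46 counts, all in SIRPa, and Sema5b, Sema6c and Sema4g did not pass either. Sema6a passed with population means of 1.21 CPM or less. A count of 0 in a library allows up to 3 counts, or 0.119 to 0.150 CPM, so absence here is limited to that depth.

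Among the ligands of the Eph system, 5 of 8 ephrins passed the filter. Their summed level was 50.2 ± 3.57 CPM in CD301b, 51.5 ± 8.65 in SIRPa, against 21.8 ± 3.44 in XCR1. Efna5 and Efnb2 were lower in XCR1, Efna2 and Efnb1 were not called, and Efnb3 had population means of 0.828 CPM or less. Between CD301b and SIRPa, edgeR, DESeq2 and limma-voom called 0 of the 5, where edgeR called 4.28% of all tested genes. For 1, Efnb3, the unadjusted p was under 0.05 with edgeR.

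Efna5 (chromosome 17, 62604184 to 62881317, minus strand), a lipid-anchored ephrin, was at 9.56, 11.4 and 6.75 CPM in CD301b, 4.83, 7.03 and 5.80 in SIRPa, against 0, 0.19 and 0 in XCR1. XCR1 thus held 4 counts of Efna5 in 1 library, against 649 in CD301b and 385 in SIRPa. By counts and library sizes, the level in CD301b was 145 times that in XCR1 (exact 95% interval 56.2 to 532) and the level in SIRPa 91.4 times (35.4 to 337); the intervals cover counting error only. The adjusted p values for Efna5 were 1.10e-06 and 3.39e-06. Between CD301b and SIRPa its log2 fold change was 0.65 ± 0.56 (adjusted p = 0.724).

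Efnb2 (chromosome 8, 8617434 to 8661242, minus strand), a transmembrane ephrin and ligand of EPHB4, was at 27.0, 21.6 and 31.3 CPM in CD301b, 35.4, 26.8 and 25.2 in SIRPa, against 6.24, 2.85 and 4.15 in XCR1. XCR1 was below the others with no overlap. For Efnb2 the log2 fold change was 2.59 ± 0.28 in CD301b against XCR1 (adjusted p = 5.09e-07) and 2.72 ± 0.29 in SIRPa against XCR1 (adjusted p = 2.71e-07), and both calls held in every alternative. Efna2 was at 8.85 ± 1.16 CPM in CD301b, 8.13 ± 2.05 in SIRPa, against 9.81 ± 1.79 in XCR1. Efnb1 was at 5.32 ± 1.12, 7.51 ± 2.11 and 7.06 ± 2.73 CPM in the same order. As a share of the per-length level of all ephrins, Efna2 was 61.7 ± 9.17% in XCR1, 34.5 ± 2.30% in CD301b and 31.7 ± 5.27% in SIRPa.

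Eph receptors were the lowest of the families, with summed levels of 16.8 ± 1.26 CPM in CD301b, 19.3 ± 3.83 in SIRPa, against 9.36 ± 4.10 in XCR1 over 14 genes. Of the 6 tested, edgeR called only Ephb4, in CD301b against XCR1 and in SIRPa against XCR1. The shares over all tested genes were 22.6% and 24.7%. In CD301b against SIRPa edgeR called 0 of the 6, beside 4.28% of all tested genes. Ephb4, the receptor of ephrin-B2, was at 1.47, 0.08 and 3.33 CPM in CD301b and 2.41, 0.53 and 1.13 in SIRPa, from 107 and 87 counts, and XCR1 had none. Against a floor of 3 counts over the XCR1 libraries, Ephb4 was at least 33.6-fold higher in CD301b (adjusted p = 0.00823) and at least 28.0-fold higher in SIRPa (adjusted p = 0.00901). Without CD301b replicate 4 the first limit was 16.1-fold, and without SIRPa replicate 1 the second was 17.1-fold. limma-voom did not call Ephb4 in CD301b against XCR1 (adjusted p = 0.0661), and CD301b replicate 3, at 0.08 CPM, was under its own floor of 0.126.

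Ephb6, a receptor without kinase activity known from thymocytes and T cells, was at 6.49, 9.26 and 6.41 CPM in CD301b, 3.03, 2.28 and 5.84 in SIRPa, against 1.75, 0.86 and 7.14 in XCR1. XCR1 replicate 3 was high for Ephb6, and it is the XCR1 library with the high sum of thymocyte and T cell markers; the part of these cells was not tested. The log2 fold change of Ephb6 in CD301b against XCR1 was 1.19 ± 0.64 (adjusted p = 0.217). Without XCR1 replicate 3 it was 2.50 and was called (adjusted p = 0.00854), and limma-voom called it with all libraries at 1.72 (adjusted p = 0.0402). Epha2 was at 6.02 ± 1.19 CPM in CD301b, 6.57 ± 1.10 in SIRPa, against 4.57 ± 2.52 in XCR1 and was not called. Epha4 and Ephb2 passed the filter with population means of 3.68 CPM or less and were not called; Ephb2 reached 7.60 CPM in SIRPa replicate 2. Ephb3 had 0 counts in CD301b, 3, 97 and 25 in the SIRPa libraries and 15, 0 and 6 in XCR1; edgeR did not call it (adjusted p = 0.0605 in CD301b against SIRPa), while DESeq2 did in both comparisons of CD301b. Epha1, Epha3, Epha5, Epha6, Epha10 and Ephb1 had no count, Epha8 had 4, and Epha7 had 48 counts, all in SIRPa.

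**Figure D4:**
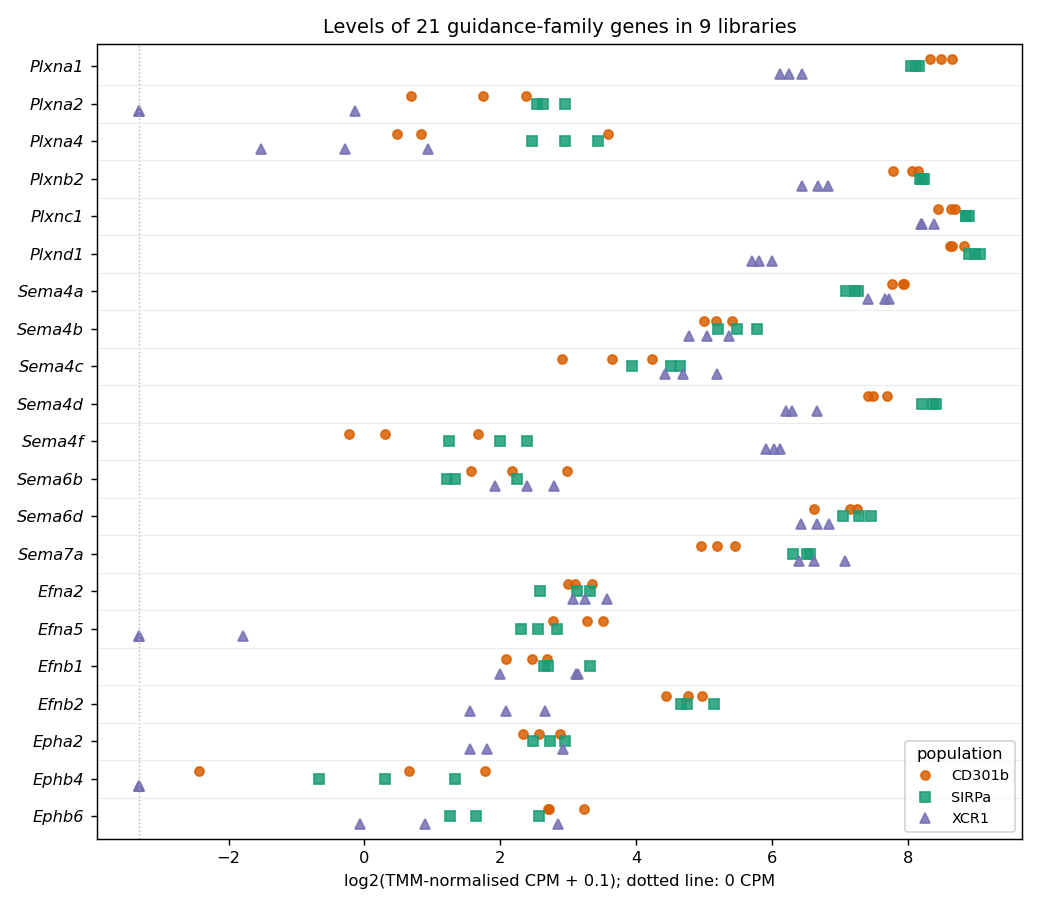
Level of 21 genes in each of the 9 libraries as log2(CPM + 0.1) (horizontal axis), with circles for CD301b, squares for SIRPa and triangles for XCR1; the dotted line is 0 CPM. XCR1 libraries lie apart to the left for Plxna1, Plxnb2, Plxnd1, Efna5 and Efnb2 and apart to the right for Sema4f.

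Most co-receptors and other receptors of semaphorins were lower in XCR1 than in the other populations. Of 15 listed genes 13 were tested: 8 were higher and 1 was lower in CD301b than in XCR1, and 8 were higher and 2 lower in SIRPa than in XCR1. These are 69.2% and 76.9% of the 13, where 22.6% and 24.7% of all tested genes were called. The median log2 fold changes of the 13 were 1.70 and 2.14, beside 0.05 and 0.06 over all tested genes. In CD301b against SIRPa edgeR called 1 of the 13, Met (7.69%, beside 4.28%, or 660, of all tested genes). DESeq2 called 2 (Kdr and Met) and limma-voom 3 (Kdr, L1cam and Met), where they called 981 and 997 of all genes. The median in this comparison was 0.05 beside 0.01 over all genes.

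Nrp2, a neuropilin that binds class 3 semaphorins with A plexins, was at 239 ± 30.9 CPM in CD301b, 222 ± 7.84 in SIRPa, against 28.8 ± 6.17 in XCR1. Its log2 fold changes against XCR1 were 3.06 ± 0.15 (adjusted p = 1.78e-12) and 2.95 ± 0.15 (adjusted p = 2.91e-12). Cd72, a receptor of SEMA4D, was at 71.9 ± 6.36, 86.3 ± 14.9 and 7.36 ± 0.687 CPM in the same order, with fold changes of 3.29 ± 0.17 (adjusted p = 5.74e-12) and 3.55 ± 0.18 (adjusted p = 2.09e-12). Kdr, a VEGF receptor that can pair with plexins, was higher in SIRPa than in XCR1 by 2.14 ± 0.13 (adjusted p = 6.74e-11).

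Partners of plexin-A1 include TREM2 and the adaptor encoded by Tyrobp. Tyrobp was at 174 ± 18.9 CPM in CD301b, 168 ± 2.71 in SIRPa, against 54.1 ± 5.35 in XCR1, a log2 fold change of 1.68 ± 0.12 in CD301b against XCR1 (adjusted p = 7.32e-10). Trem2, also a macrophage gene, was at 6.03 ± 1.96 CPM in CD301b and 9.56 ± 5.53 in SIRPa and had no count in XCR1. Against a floor of 3 counts over the XCR1 libraries, it was at least 124-fold and at least 197-fold higher (adjusted p = 6.48e-07 and 2.65e-07). Without CD301b replicate 1 the limit for CD301b was 112-fold, and without SIRPa replicate 3 that for SIRPa was 139-fold. For SEMA7A, Itgb1 was at 487 ± 53.0, 449 ± 19.3 and 409 ± 35.4 CPM and was not called by edgeR, though limma-voom called it in CD301b against XCR1, while Itga1 was at 12.6 ± 3.31, 7.26 ± 3.42 and 23.8 ± 2.26 CPM. Itga1 was lower than in XCR1 by a log2 fold change of -0.91 ± 0.32 in CD301b (adjusted p = 0.0427) and -1.72 ± 0.33 in SIRPa (adjusted p = 0.000409). Met, a receptor tyrosine kinase that associates with B plexins, was higher in CD301b than in SIRPa, at 68.7 ± 14.0 against 44.5 ± 4.05 CPM (log2 fold change 0.63 ± 0.16, adjusted p = 0.0271). Its level was highest in XCR1, at 93.0 ± 14.0 CPM. Met was lower in SIRPa than in XCR1 by -1.06 ± 0.16 (adjusted p = 3.50e-05, edgeR). In CD301b against XCR1 it was -0.44 ± 0.16 (adjusted p = 0.0545, edgeR), a difference that DESeq2 and limma-voom called.

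Genes acting downstream of plexins were divided. Of 40 listed genes 36 were tested, of which 8 were higher and 4 lower in CD301b than in XCR1, and 8 higher and 7 lower in SIRPa than in XCR1. These are 33.3% and 41.7% of the 36, where 22.6% and 24.7% of all tested genes were called. Their medians, -0.06 and -0.12, lay beside 0.05 and 0.06 over all genes. Dpysl2, a collapsin response mediator protein, was higher in CD301b than in XCR1 by 1.28 ± 0.11 (adjusted p = 1.76e-08), and Rnd3, a GTPase that binds plexins, by 1.44 ± 0.14 (adjusted p = 8.77e-08). Pak1, a kinase activated by RAC, was lower in CD301b by -1.08 ± 0.12 (adjusted p = 6.38e-07) and in SIRPa by -1.21 ± 0.12 (adjusted p = 1.47e-07). In CD301b against SIRPa edgeR called 2 of the 36 (5.56%, beside 4.28% of all genes), both higher. DESeq2 and limma-voom each called 6, among them Mical3, for which edgeR's log2 fold change was -0.45 (adjusted p = 0.0743). Over all genes these tools called 981 and 997 in this comparison, where edgeR called 660. The genes called by edgeR were Tiam1, an exchange factor for RAC, at 195 ± 9.06 against 101 ± 9.31 CPM (0.95 ± 0.11, adjusted p = 2.05e-05), and Dpysl2 at 226 ± 16.0 against 169 ± 4.56 CPM (0.42 ± 0.11, adjusted p = 0.0293). XCR1 held 209 ± 21.3 CPM of Tiam1, and SIRPa was lower by -1.05 ± 0.11 (adjusted p = 3.38e-07, edgeR). Between CD301b and XCR1 Tiam1 was not called (-0.10 ± 0.11, adjusted p = 0.599, edgeR).

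Of 40 genes of Eph and ephrin signalling, 32 were tested. Against XCR1, 9 were higher and 8 lower in CD301b; in SIRPa against XCR1 10 were higher and 5 lower. These are 53.1% and 46.9% of the 32, where 22.6% and 24.7% of all tested genes were called. The medians were 0.13 and 0.20, beside 0.05 and 0.06 over all genes. Itsn1, an exchange factor that acts with EPHB2, was higher in CD301b than in XCR1 by 2.12 ± 0.23 (adjusted p = 3.57e-07). Dnmbp, an exchange factor for CDC42, was lower by -2.01 ± 0.19 (adjusted p = 4.16e-08). Adam10, a protease that cleaves ephrins, was higher in SIRPa than in XCR1 by 1.08 ± 0.10 (adjusted p = 8.43e-08). In CD301b against SIRPa DESeq2 and limma-voom each called 7 of the 32, where they called 981 and 997 of all genes. With edgeR 3 were called (9.38%, beside 4.28%, or 660, of all genes). These 3 were Vav2, lower at 61.9 ± 7.71 against 118 ± 4.24 CPM, Src, lower at 35.5 ± 7.50 against 57.1 ± 1.91 CPM, and Vav3, higher at 69.5 ± 15.5 against 37.2 ± 7.29 CPM. Their adjusted p values were 0.000145, 0.0171 and 0.00513. Vav2 and Vav3 are exchange factors downstream of Eph receptors, and Src is a kinase.

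Other axon guidance genes (slits, netrins, their receptors and related genes) were mostly at low counts, and 14 of 33 in the table were tested. Against XCR1, 1 was called in CD301b, and in SIRPa 3 were higher and 1 lower. These are 7.14% and 28.6% of the 14, where 22.6% and 24.7% of all tested genes were called. Srgap3, a GTPase-activating protein of the slit pathway, was lower than in XCR1 by -1.68 ± 0.18 in CD301b (adjusted p = 2.99e-07) and -1.56 ± 0.18 in SIRPa (adjusted p = 7.44e-07). No gene of this list was called between CD301b and SIRPa by edgeR, DESeq2 or limma-voom (0 of 14), where edgeR called 4.28% of all tested genes. For 1 gene, Srgap2, the unadjusted p was under 0.05 with edgeR.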

How the data were processed

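Thymi were digested with collagenase D, dendritic cells were sorted, and libraries were made with a stranded kit for low-input total RNA, per the labels' protocols. The deposited table holds raw read counts per gene symbol. Per the submitters' processing notes, the authors used Trimmomatic, HISAT2, featureCounts and build mm10; versions, annotation and strand setting are not stated in the sources used here. A second deposited table of log2 CPM values was used only as a check: for members with at least 100 counts, its median difference from log2 CPM computed here was 0.0647 to 0.183 per library.

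The symbols of 24 genes read as dates (0.125 to 0.187% of a library's counts); these rows entered neither the library sizes nor the tests. edgeR 4.0.16 (R 4.3.3) was run with filterByExpr (minimum count 10), TMM and the robust quasi-likelihood test, two-sided, in 1 fit over 9 libraries. SE is the log2 fold change divided by the square root of F. The same fit was tested on simulated data with known fold changes, read in CD301b against SIRPa only. That run does not cover the comparisons with XCR1. A group with no counts was set at a floor of 3 counts. Alternatives were DESeq2 1.42.0, limma-voom (limma 3.58.1), 2 other scalings, no filter, a replicate block, the 6 libraries compared alone, and each library left out.

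The genes, the pathway and marker lists and the tests were chosen with earlier results of these data known. Named in full are genes called in 1 comparison or more, with levels for those tested at 5 CPM or more in a population; from each pathway list the rule takes up to 3 called genes and the highest uncalled gene per comparison, of which some are given. Nrp1 and other list members are counted only, apart from receptors of the semaphorins described, which were added after their values were seen. Coordinates and exonic lengths are from GENCODE M21 (GRCm38). RefSeq promoter windows were found for 45 of the 54 genes.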

Additional observations from a re-analysis of the deposited data

How the results depend on the processing

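Over 16 alternatives, tests of single members kept their direction and side of the threshold in 941 cases, lost a call in 25, gained one in 23 and changed direction in 18. In 0 of these 18 was the gene called before or after. The log2 fold change of Ephb4 in CD301b against SIRPa went from 0.26 to -1.92 with the replicate block and -0.56 with limma-voom. Sema4b in CD301b against XCR1 went from 0.12 to -0.054 with the replicate block. Leaving out each library gave these ranges. In CD301b against SIRPa, Ephb4 was -0.80 to 0.96, Efna2 -0.070 to 0.28 and Efnb2 -0.26 to 0.031. In CD301b against XCR1, Sema4b was -0.0086 to 0.29, Sema6b -0.54 to 0.20 and Efna2 -0.28 to 0.0051. In SIRPa against XCR1, Efnb1 was -0.20 to 0.27 and Ephb6 -0.31 to 1.51. The counts called among the 54 genes moved most in CD301b against SIRPa. The main analysis called 3 there, 1 higher and 2 lower. With no filter, with the replicate block and with limma-voom 6 were called (2 higher, 4 lower), with DESeq2 8 (2 higher, 6 lower), and with only the 6 libraries 2 were higher. Over all genes, this comparison had 660 calls in the main analysis and 660 with the replicate block. It had 936 with no filter, 997 with limma-voom, 981 with DESeq2 and 901 with only the 6 libraries. Among the 54 genes, leaving out each library gave 3 to 6 called, 1 to 2 higher and 2 to 4 lower. The most were called without CD301b replicate 4, where 665 of all genes were called. In CD301b against XCR1, leaving out each library gave 10 to 14 called, 7 to 11 higher and 2 to 4 lower. The fit of the 6 libraries gave 6 higher in place of 10. Over all genes that fit called 2909, where the main analysis called 3487. In SIRPa against XCR1 leaving out each library gave 12 to 13 called, 10 to 11 higher and 1 to 2 lower, with 1 lower without XCR1 replicate 2. The causes were not tested.

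Deviations of same-numbered libraries correlated weakly, at 0.00305 to 0.0413 in 7 pairs, beside -0.0672 to 0.0481 in 20 pairs with other numbers. Deviations over all genes include counting error, so such small values do not show whether libraries share animals. The numbers were not taken as pairs in the main analysis. With the replicate block, 12 members were called in CD301b against XCR1, without Ephb4 (adjusted p = 0.0885) and Plxna4 (0.475) and with Sema4a (0.0321), and 13 in SIRPa against XCR1. Over all genes, calls in CD301b against SIRPa went from 660 to 328 without SIRPa replicate 1 and 997 with limma-voom, and to 438 without CD301b replicate 3. Another scaling moved the median log2 fold change of all genes by -0.06 to 0.00. Plxna2, Plxna4 and Ephb4 rest on few counts.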
